A study of Homo sapiens with 5 samples.

Results

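The STEAP metalloreductases, STEAP1, STEAP2, STEAP3 and STEAP4, were described in LNCaP and VCaP, established cell lines from human prostate cancer. The members were taken by symbol, and the 4 genes are 4 of 12916 genes measured in the RNA table, or 4 of 11753 protein-coding genes. They hold 13 of the 40253 RefSeq accessions of that table. The family was singled out with the fall of STEAP4 after LSD1 depletion already known. Its expression values are therefore a description and are not tested.

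There were 5 samples, 1 in each group. LNCaP cells transfected with a control siRNA and LNCaP cells transfected with an siRNA against LSD1, the lysine demethylase encoded by KDM1A, gave 1 RNA-seq library each. Untransfected LNCaP cells gave ChIP-seq peak lists for LSD1 and for histone H3 phosphorylated at threonine 6 (H3T6ph), and untransfected VCaP cells gave a peak list for LSD1. All groups spent 3 days without phenol red and in charcoal-stripped serum, which is low in steroids, ahead of a hormone stimulus that the labels do not name, a step that all groups share. The design text asks about LSD1 in androgen signalling, so these comparisons ask how the STEAP genes differed after LSD1 siRNA and where LSD1 and H3T6ph peaks lay around them. RNA was not measured in VCaP here.

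STEAP proteins are membrane proteins that bind heme in their membrane-spanning part, and most of them pass electrons from NADPH inside the cell to ferric iron or cupric copper outside it or in an endosome. Reduction of the metal precedes its transport across the membrane. STEAP1 lacks the NADPH-binding domain of the others and is known as a cell surface antigen of prostate epithelium and prostate cancer. STEAP2, also called STAMP1, is abundant in prostate. STEAP3 is the reductase of the transferrin cycle in red cell precursors, and STEAP4, also called STAMP2 or TIARP, has been studied in fat tissue and inflammation and is known to be induced by androgen in prostate cells.

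STEAP4, STEAP1 and STEAP2 lie on the long arm of chromosome 7, and STEAP3 lies on chromosome 2. To show how the start of the gene that fell differs from those of the other members, the 250 bases before each annotated start site are printed 5′ to 3′ on the gene's own strand, from RefSeq on GRCh38.p14. All 4 genes were matched. Capitals mark matches to GGGCGG or its reverse complement CCGCCC, the GC box, and to TTGCGNAA, a C/EBP-type element. The positions are chr7:88306895-88307144 (minus strand), chr7:90154219-90154468, chr7:90211490-90211739 and chr2:119223584-119223833 (plus strand) in the order STEAP4, STEAP1, STEAP2 and STEAP3.
STEAP4: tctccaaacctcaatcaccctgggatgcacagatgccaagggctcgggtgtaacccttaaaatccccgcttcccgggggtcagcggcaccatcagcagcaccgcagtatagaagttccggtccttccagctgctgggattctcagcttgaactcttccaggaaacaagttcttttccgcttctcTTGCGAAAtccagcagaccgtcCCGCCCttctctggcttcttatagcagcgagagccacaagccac
STEAP1: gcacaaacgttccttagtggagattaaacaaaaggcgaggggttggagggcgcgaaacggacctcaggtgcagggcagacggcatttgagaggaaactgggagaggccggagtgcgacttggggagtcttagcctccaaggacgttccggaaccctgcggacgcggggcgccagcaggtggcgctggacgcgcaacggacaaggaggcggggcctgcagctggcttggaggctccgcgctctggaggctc
STEAP2: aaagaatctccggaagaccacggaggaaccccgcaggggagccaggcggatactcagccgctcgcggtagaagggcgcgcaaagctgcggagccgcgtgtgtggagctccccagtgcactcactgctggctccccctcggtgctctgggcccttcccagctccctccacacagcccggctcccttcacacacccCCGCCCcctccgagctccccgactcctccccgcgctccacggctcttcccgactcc
STEAP3: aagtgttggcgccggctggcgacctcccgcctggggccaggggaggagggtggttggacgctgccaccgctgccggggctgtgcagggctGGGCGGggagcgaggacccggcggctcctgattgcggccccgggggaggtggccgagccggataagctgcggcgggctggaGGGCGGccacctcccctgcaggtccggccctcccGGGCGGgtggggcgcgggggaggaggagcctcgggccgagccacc

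The STEAP4 stretch had the lowest content of G and C of the 4, at 55.6%, with 11 CpG dinucleotides. STEAP1 was at 64.4% with 21 CpG, STEAP2 at 69.6% with 21 and STEAP3 at 78.4% with 25. The median over 35097 promoter entries was 58.0% and 11 CpG, so STEAP4 lay near the middle of all promoters and the others above it. A GC box was present once before STEAP4 (bases 44 to 39 before the start) and once before STEAP2 (56 to 51). STEAP3 held 3 of them, and STEAP1 held none of these letters. GC boxes occurred in 42.6% of all promoters of this length. The C/EBP-type letters TTGCGAAA stood 66 to 59 bases before the STEAP4 start and before no other member, and TTGCGNAA occurred on either strand in 0.752% of all promoters. This motif was chosen after the STEAP4 sequence was seen. None of the 4 stretches held the steroid response half-site AGAACA or its complement TGTTCT (12.4% of promoters), CCAAT (32.0%) or TATAAA (10.7%), all searched on both strands. The full element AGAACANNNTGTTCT, which contains the half-site, was absent from them too and occurred in 1 of 35097 promoters. A match of letters is a description and not a bound site.

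KDM1A, the targeted gene, was checked first. Its main accession, NM_015013, was at 30.2 FPKM in the control siRNA library and 5.39 FPKM in the LSD1 siRNA library. FPKM are sequenced fragments scaled to transcript length and library depth. The LNCaP identity was checked against marker genes. All 8 prostate luminal markers reached 1 FPKM, with sums of 5011 FPKM in the control library and 3901 FPKM after LSD1 siRNA, and 0 of 3 basal markers did. The fibroblast and smooth muscle markers summed to 11.9 and 15.9 FPKM (2 of 4 at 1 FPKM or more), the endothelial ones to 1.99 and 2.51 FPKM (1 of 3) and the immune ones to 11.0 and 16.2 FPKM (1 of 3). CDH5 and CD3E were listed at 0 in both libraries. The part of these shifts in the STEAP values was not tested, and in bulk RNA fewer cells of a type and less RNA per cell cannot be told apart.

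STEAP4 fell after LSD1 siRNA, and the other 3 members stayed within a 1.5-fold difference. All 4 had a lower value in the LSD1 siRNA library, against 52.9% of measured protein-coding genes. By the size rule, a 2-fold difference on the log2(FPKM + 1) scale, 1 of the 4 was lower and 0 were higher. In the background 0.128% of protein-coding genes were lower and 0.111% were higher by this rule. Nothing is read from these shares, because the family was chosen from the same contrast.

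STEAP4 (chr7:87905744-87936228, hg19, minus strand) was at 9.89 FPKM after control siRNA and at 2.52 FPKM after LSD1 siRNA. The LSD1 siRNA library thus held 25.5% of the control level. On the log2(FPKM + 1) scale, which understates differences of low genes, the log2 fold change was -1.63. Of 11753 protein-coding genes STEAP4 had the second-lowest log2 fold change, so rank 2, after KDM1A. In level it ranked 6954 in the control library, in the lower part of the measured genes. The table splits the gene over 3 accessions. NM_024636 carried all of the control signal, at 9.89 FPKM, and was at 2.13 FPKM after LSD1 siRNA, which is 21.5% of control. NM_001205315 was listed at 0 in the control library and at 0.399 FPKM after LSD1 siRNA, and made up 15.8% of the gene's remaining signal. NM_001205316 was listed at 0 in both. The authors' deposited table gives NM_024636 a p-value of 1.85e-08 and a q-value of 5.84e-05 and calls it changed. For NM_001205315 the authors' deposited table gives a q-value of 0.999981. A called accession was present in that table for 0.978% of protein-coding genes. With 1 library per group, the authors' p-values and q-values cannot measure a spread between replicates.

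**Figure D1:**
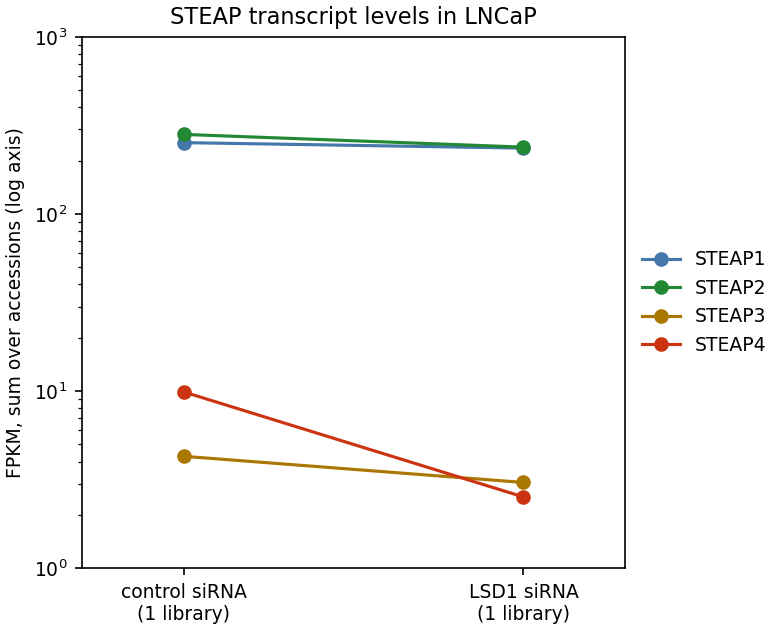
Level of each STEAP gene in the control siRNA and LSD1 siRNA libraries of LNCaP, as FPKM summed over accessions on a log axis, with 1 library per point. STEAP1 and STEAP2 sit between 235 and 281 FPKM in both libraries, and the STEAP4 line drops from 9.89 to 2.52 FPKM and crosses that of STEAP3.

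STEAP1 (chr7:89783689-89794141, hg19, plus strand) has 1 accession in the table and was at 252 FPKM after control siRNA and at 235 FPKM after LSD1 siRNA, or 93.1% of control, with a log2 fold change of -0.10 that was far from either size limit. The authors' deposited table gives it a q-value of 0.999981. STEAP1B, a close copy elsewhere on chromosome 7, was listed at 0.194 and 0.251 FPKM. The stretches before the starts of STEAP1 and STEAP1B had the same base at 244 of 250 positions (97.6%). These bases lie before the start sites, and the identity of the transcripts themselves was not measured. How the authors' counting divided reads between related genes is not given in the sources used here, so the split between STEAP1 and STEAP1B is uncertain. The antisense gene STEAP2-AS1, which is annotated across STEAP1 on the opposite strand in GRCh38.p14, was not analysed here. The RNA kit does not mark strand, so its reads cannot be told apart from those of STEAP1. The same holds for STEAP3-AS1, which lies within STEAP3 there and was not analysed here either.

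STEAP2 (chr7:89841000-89866992, hg19, plus strand) was the most abundant member, at 281 FPKM after control siRNA and at 238 FPKM after LSD1 siRNA. This was 84.8% of control, with a log2 fold change of -0.24. Of its 6 accessions 4 were above 0 in both libraries. NM_152999 was at 101 and 82.9 FPKM, NM_001040665 at 88.1 and 73.4 FPKM and NM_001040666 at 64.1 and 53.4 FPKM in the control and LSD1 siRNA libraries. These 3 were thus at 82.5 to 83.3% of control. NM_001244944 was level, at 28.3 and 28.5 FPKM. The authors' deposited table gives a q-value of 0.999981 for each of these 4 accessions. The shares of the accessions in the gene's signal moved little, the largest accession making up 35.8% in the control library and 34.8% after LSD1 siRNA.

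STEAP3 (chr2:119981384-120023227, hg19, plus strand) was the lowest member with control siRNA, at 4.28 FPKM, and was at 3.05 FPKM after LSD1 siRNA. Its level was thus 71.2% of control. On the log2(FPKM + 1) scale its log2 fold change, -0.38, missed the 1.5-fold limit. Its 3 accessions did not move together. NM_001008410 was at 1.83 and 1.90 FPKM, while NM_182915 was at 1.32 and 0.567 FPKM and NM_018234 at 1.13 and 0.581 FPKM. The first therefore made up 42.7% of the STEAP3 signal with control siRNA and 62.3% with LSD1 siRNA. The difference in STEAP3 rests on NM_182915 and NM_018234, at 42.9% and 51.4% of control. The authors' deposited table gives all 3 a q-value of 0.999981. These accessions share sequence, so their separate values are estimates of the authors' program.

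**Figure D2:**
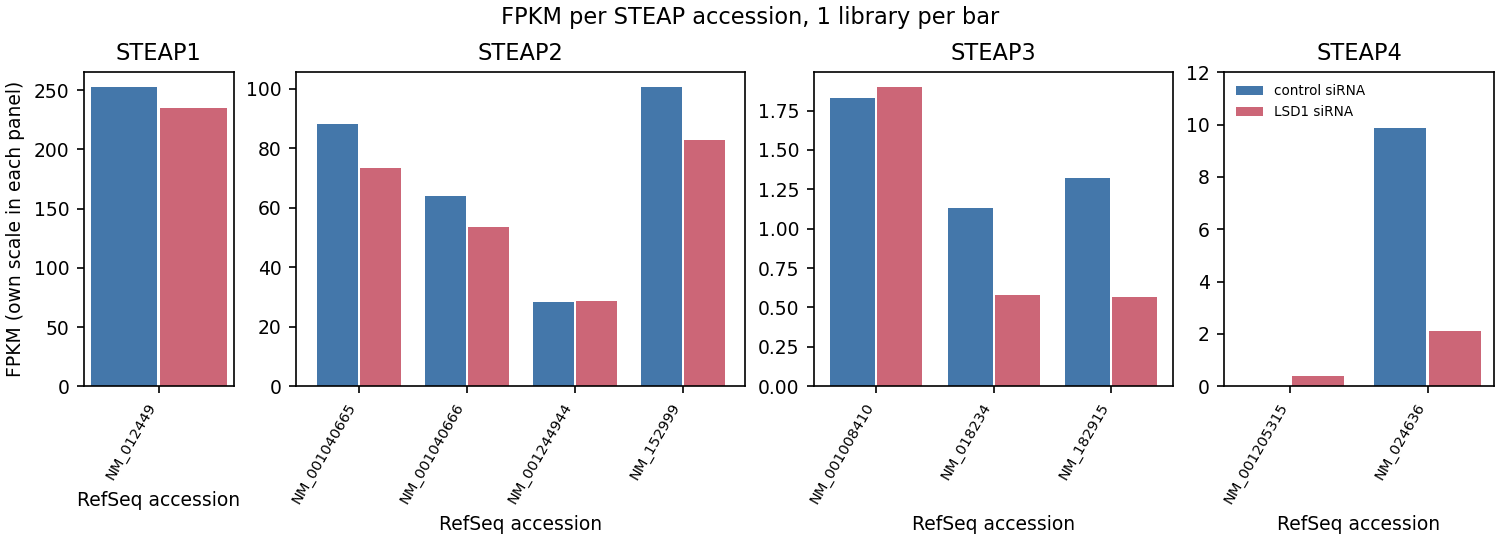
FPKM of each STEAP accession above 0 in either library, with control siRNA and LSD1 siRNA bars from 1 library each and a separate linear axis from 0 in each panel. NM_024636 of STEAP4 drops from 9.89 to 2.13 FPKM, 3 of 4 STEAP2 accessions are at 82.5 to 83.3% of control, and NM_001008410 of STEAP3 is level while the other 2 are lower.

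In FPKM, a scale per transcript length, the order of levels with control siRNA was STEAP2, STEAP1, STEAP4 and STEAP3. After LSD1 siRNA STEAP4 came last. STEAP2 was 1.11 times STEAP1 in the control library and 1.01 times after LSD1 siRNA, so these neighbours in the order were close in both. The level of STEAP1 was 25.5 times that of STEAP4 with control siRNA and 93.2 times after LSD1 siRNA. STEAP4 was 2.31 times STEAP3 in the control library and 0.828 times after LSD1 siRNA. No replicates exist against whose spread these ratios could be set. STEAP1 and STEAP2 ranked 248 and 220 among protein-coding genes in the control library, within the top 2.11 and 1.87%. STEAP3 ranked 9455. The summed family signal was 548 FPKM in the control library and 479 FPKM after LSD1 siRNA. STEAP4 contributed 1.81% of it in the former and 0.527% in the latter, and STEAP1 with STEAP2 nearly all of the rest.

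**Figure D3:**
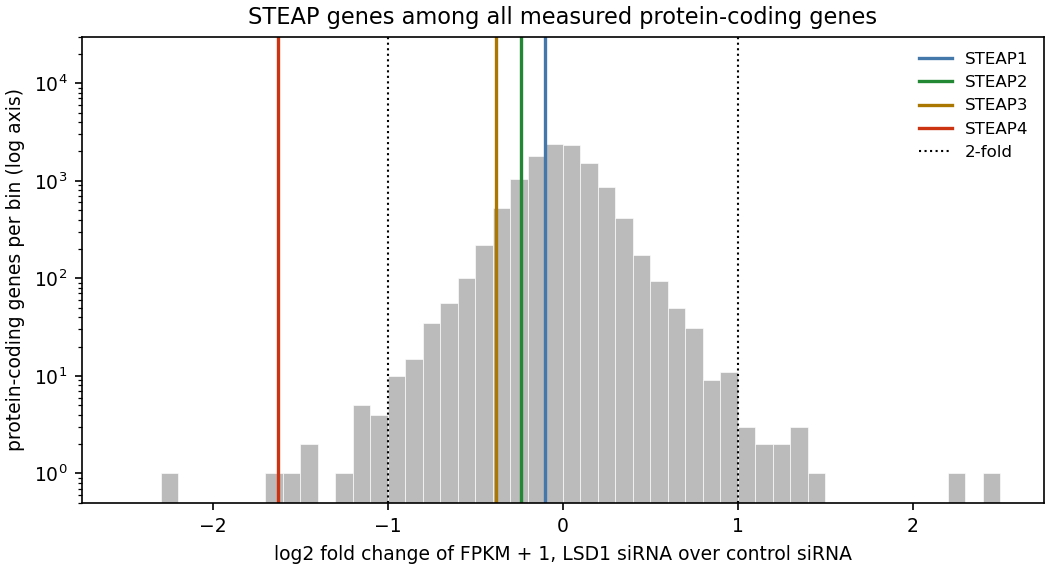
Number of protein-coding genes per bin of 0.1 in log2 fold change of FPKM + 1, LSD1 siRNA over control siRNA, on a log axis, with values beyond 2.5 placed in the outermost bins and the STEAP genes as coloured lines. STEAP4 at -1.63 lies past the 2-fold line, and STEAP3 at -0.38, STEAP2 at -0.24 and STEAP1 at -0.10 lie short of it. Of protein-coding genes, 4.31%, 13.2% and 31.9% had a lower log2 fold change than STEAP3, STEAP2 and STEAP1.

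The protein-coding genes nearest to each member in log2(FPKM + 1) over the 2 libraries were found by Euclidean distance. For STEAP4 these were SPAG16 (distance 0.39), the readthrough gene MICOS10-NBL1 (0.42) and NPPC (0.53), which encodes C-type natriuretic peptide. SPAG16 was at 7.46 and 2.91 FPKM, and NPPC at 7.13 and 1.81 FPKM, in the control and LSD1 siRNA libraries. For STEAP2 they were APP (0.02), RAN (0.07) and GLO1 (0.08), and for STEAP1 they included BCAP31 (0.06) and MORF4L1 (0.07). STEAP3 lay close to ZNF285, ZNF587B and QTGAL, all within 0.0144. The gene nearest to STEAP4 was thus farther off than any listed for the other members. These distances use the same 2 values whose fall singled out STEAP4, so nothing is read from this.

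Other genes of iron and copper handling were set beside the family. Of 42 listed genes 36 reached 1 FPKM in either library, and 0 of them were lower and 0 higher by 2-fold. Over all protein-coding genes 0.128% were lower and 0.111% higher by 2-fold, so nothing is read from these 2-fold counts. At 1.5-fold 2 were higher and 0 lower, where 1.04% of protein-coding genes were higher and 1.18% lower. The median log2 fold change of the 36 was 0.08, beside -0.01 over all protein-coding genes, with 22 above 0 and 14 below.

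Among transmembrane reductases of the cytochrome b561 kind, 5 of 6 were measured. CYB561, a reductase of secretory vesicles, was at 75.4 and 65.2 FPKM (log2 -0.21). FRRS1 was at 4.80 and 6.49 FPKM (log2 0.37), the largest difference of this group. CYBRD1, the duodenal ferric reductase, was below the minimum, at 0.0555 and 0.113 FPKM. The transferrin receptor gene TFRC was at 98.8 and 114 FPKM (log2 0.20), and SLC11A2, the transporter that takes up ferrous iron, at 34.9 and 33.5 FPKM (log2 -0.06). Of the storage genes, FTH1, the ferritin heavy chain gene, was at 3429 and 4784 FPKM (log2 0.48), and FTL, the light chain gene, at 654 and 690 FPKM (log2 0.08). Ferritin genes have many processed copies, which makes their values uncertain.

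The pair that rose past 1.5-fold were CP and HMOX1. CP, which encodes the copper-carrying ferroxidase ceruloplasmin, went from 12.5 to 21.0 FPKM (log2 0.71). HMOX1, the inducible heme oxygenase gene, went from 27.5 to 48.3 FPKM (log2 0.79). The lowest value of the list was that of BMP6, a signal for hepcidin expression, at 1.01 and 0.446 FPKM (log2 -0.48). With a pseudocount of 0.1 in place of 1, BMP6 was past 2-fold. Of the copper genes, the transporter gene SLC31A2 differed most, at 6.56 and 9.21 FPKM (log2 0.43). SLC31A1, the main copper importer, was at 35.3 and 37.4 FPKM (log2 0.08). In the authors' deposited table a changed accession is listed for HMOX1, HFE and ATP7B and for no other gene of the 36, beside 0.978% of all protein-coding genes. These calls are for single accessions. Summed per gene, HFE was nearly level, at 2.01 and 2.14 FPKM (log2 0.06). So was ATP7B, at 4.25 and 4.65 FPKM (log2 0.11).

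**Figure D4:**
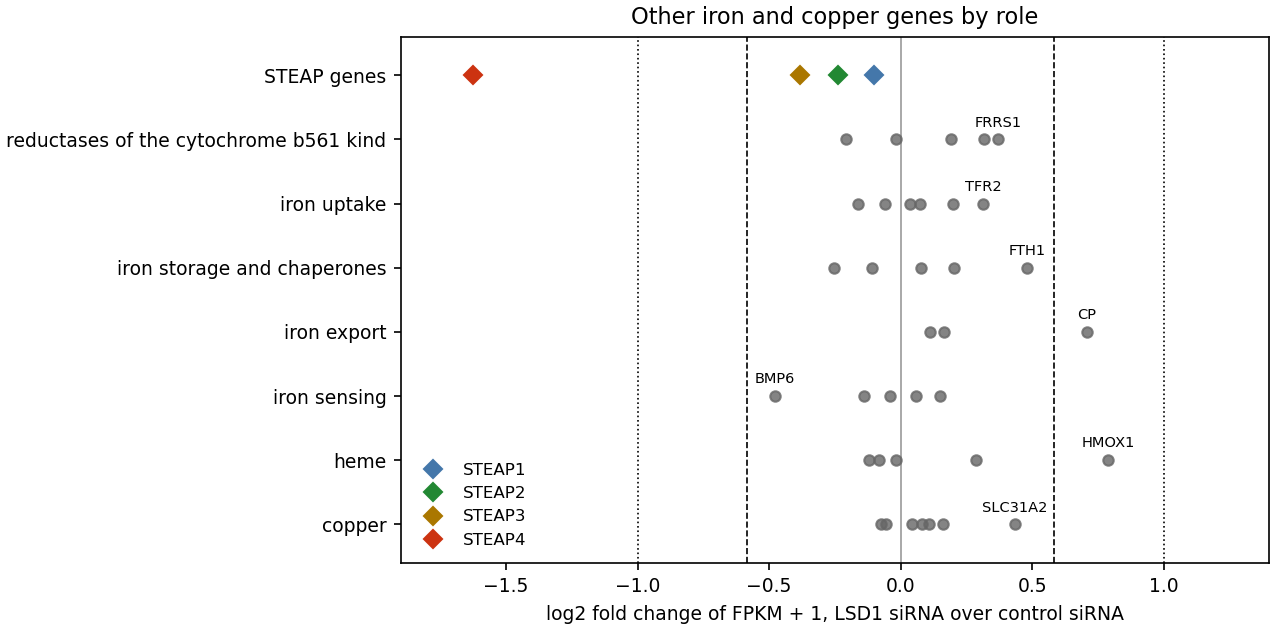
Log2 fold change of FPKM + 1, LSD1 siRNA over control siRNA, for the 4 STEAP genes (diamonds) and 36 measured iron and copper genes (points, by role, with the member farthest from 0 named), 1 library per group. Dashed lines mark 1.5-fold and dotted lines 2-fold, and STEAP4 at -1.63 stands past them while the other genes lie between -0.48 and 0.79.

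Genes known to be induced by androgen were compared with STEAP4, since STEAP4 belongs to that class. Of 15 such genes, 14 had a lower value after LSD1 siRNA, with a median log2 fold change of -0.36. Over all protein-coding genes 52.9% had a lower value, the median was -0.01, and 0.128% were lower by 2-fold and 1.18% by 1.5-fold. At 2-fold 1 was lower, the metalloprotease-like gene ADAM7, from 3.88 to 1.19 FPKM (log2 -1.16). At 1.5-fold 5 were lower, among them FKBP5, a co-chaperone gene of steroid receptors, from 190 to 115 FPKM (log2 -0.72). The highest value was that of NDRG1, at 815 and 824 FPKM (log2 0.01). STEAP4, at -1.63, lay below all 15, STEAP3 and STEAP2, at -0.38 and -0.24, lay within their range, and so did STEAP1, at -0.10. The place of STEAP4 was fixed by its rank of 2 among all protein-coding genes, after KDM1A, so nothing is read from it. This list was chosen with earlier results known, so its direction supports nothing by itself.

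The peak lists were then read around the family. A gene had a nearby peak when a called peak lay within 20 kb of its interval in the table. LSD1 of LNCaP had peaks near STEAP2, STEAP3 and STEAP4, so 3 of 4, where 42.2% of protein-coding genes had one. LSD1 of VCaP had peaks near STEAP2 and STEAP4, so 2 of 4, against 41.9%. H3T6ph had one near STEAP4 alone, 1 of 4, against 18.0%. STEAP4 was the single member with all 3, which 7.30% of protein-coding genes had, and STEAP1 had none, as did 34.3%. With 4 members, nothing particular to the family is read from these counts.

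At STEAP4, the H3T6ph peak lay inside the gene interval at chr7:87934362-87934891, and its nearer edge was 1.34 kb past the start site. Its score, a value the authors gave each peak, was 88.1, rank 767 of 4460 in that list. LSD1 of LNCaP had a peak inside the interval at chr7:87910721-87911533, 24.7 kb past the start (score 64.2, rank 6472 of 11673). A second LNCaP LSD1 peak, at chr7:87888704-87889354, lay 16.4 kb past the other end of the gene (score 55.6, rank 9303). The next, outside the limit, was 48.9 kb away. The VCaP LSD1 peak, at chr7:87903914-87904424, lay 1.32 kb past the same end and had the lowest score its list holds, 50. No peak of one list overlapped a peak of another at STEAP4, and none reached the stretch before its start. Exons and introns are not stated for these peaks, because no annotation of hg19 was used.

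At STEAP2, LSD1 peaks of both lines lay 6.90 and 6.28 kb past the end of the gene, at chr7:89873889-89874850 in LNCaP and chr7:89873268-89874990 in VCaP. They shared 962 bases, and they covered the low-coordinate end of the next gene, CFAP69. The VCaP peak scored 145 and ranked 229 of 9854. In LNCaP the score was 53.4, rank 10203 of 11673, near the end of that list. The next LSD1 peak of LNCaP was 144 kb from STEAP2.

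STEAP3 had an LNCaP LSD1 peak 3.48 kb upstream of its start, at chr2:119977314-119977905. Its score of 50.2 ranked 11619 of 11673, close to the floor of the list. The nearest VCaP LSD1 peak was just outside the limit, 25.9 kb past the end of the gene, with a score of 50.5. H3T6ph was nearest at 72.0 kb, where its peak at chr2:120095235-120095855 met an LNCaP LSD1 peak within C2orf76.

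STEAP1, at 252 FPKM in the LNCaP control library, had no peak of any list nearby, the nearest being the VCaP LSD1 peak at CFAP69, 79.1 kb past its end. Upstream of it, LSD1 and H3T6ph of LNCaP met at chr7:89696329-89697183, 86.5 kb from the start, with 311 shared bases. The LSD1 peak there scored 99.9, rank 1615 of 11673, and the H3T6ph peak 74.5, rank 1198 of 4460. Another LNCaP LSD1 peak, with a score of 101, lay 92.6 kb upstream.

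The chromosome 7 region from STEAP4 to STEAP2, with 100 kb on each side, spans 2.16 Mb. STEAP4 is 1847 kb from STEAP1, and STEAP1 is 46.9 kb from STEAP2. The region held 9 LNCaP LSD1 peaks, 7 VCaP LSD1 peaks and 2 H3T6ph peaks. These are 4.16, 3.24 and 0.925 peaks per Mb, beside 3.77, 4.42 and 1.82 per Mb over chromosome 7, whose length was taken as the largest coordinate in the files. With these sides included, the region was thus close to the chromosome for LNCaP LSD1 and below it for the others, on small counts. Without the sides 6, 4 and 2 peaks were left, and their density was not set against the chromosome. Between the 20 kb zones of STEAP4 and STEAP1 lay 5, 4 and 1 peaks. Peaks of different lists overlapped at 2 places, the site upstream of STEAP1 and the site between STEAP2 and CFAP69.

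**Figure D5:**
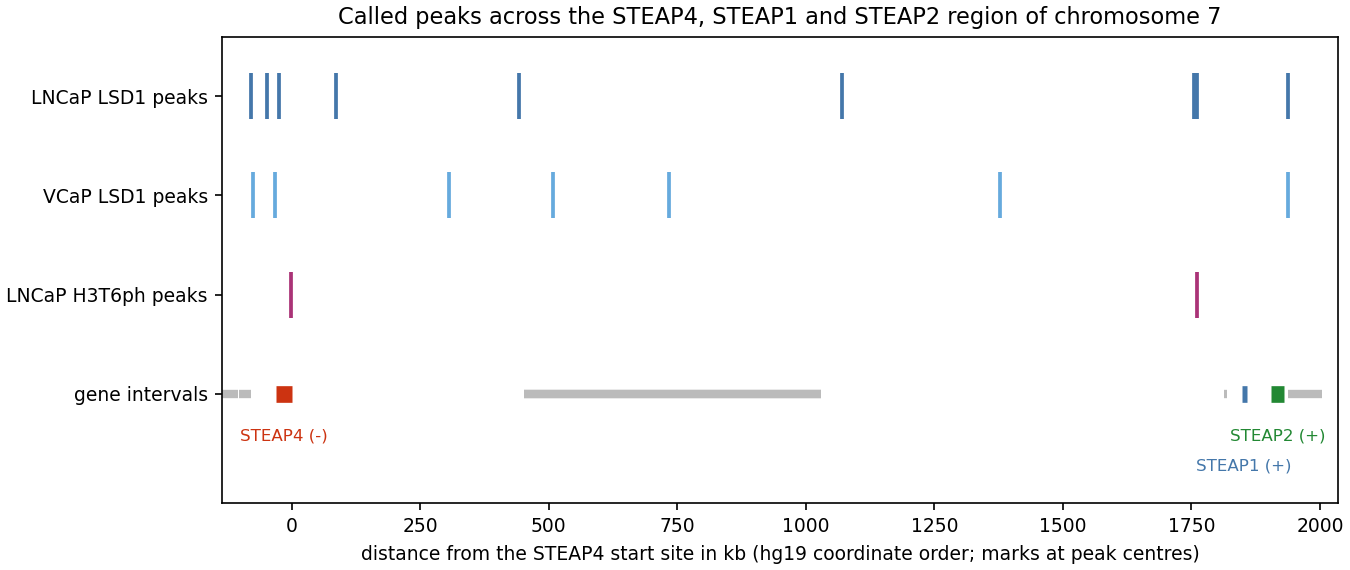
Called peaks (vertical marks at peak centres) of the 3 lists and gene intervals across the chromosome 7 region, in kb from the STEAP4 start site, with each STEAP gene's strand in brackets. An H3T6ph mark stands at the STEAP4 start, 9 LNCaP LSD1 and 7 VCaP LSD1 marks spread over the region, and none stands at STEAP1.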

How the data were processed

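The authors deposited FPKM for each RefSeq accession in both libraries, together with p-values and q-values, in columns laid out as by Cuffdiff, per the file headers. The peaks carry a score from the authors, whose scale is not stated. It served only to rank peaks within a list. Tools named in the submitters' processing notes are MACS2, Cuffdiff 2.0.1, TopHat2 2.0.4 and Bowtie2 2.0.0, with the build hg19. For control tracks and library scaling the sources used here give nothing.

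Of 40253 accessions, 38934 (96.7%) matched a symbol in the RefSeq gene table of GRCh38.p14, and 42 genes with a failed accession were left out. FPKM were summed per symbol, and a gene counted as measured if either library reached 1 FPKM. Differences were taken in log2(FPKM + 1), which understates those of low genes. With 1 library per group no test was run. Single-read olfactory receptor genes put the depth at about 33.0 and 25.5 M fragments (control, LSD1 siRNA), so that a 2 kb transcript at 1 FPKM would rest on about 59.3 and 45.8 fragments. Depth of the ChIP samples is unknown. Overlaps used bedtools 2.31.1 and at least 1 shared base.

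Members and lists were chosen with earlier results of these data known. Named were the STEAP genes and STEAP1B, KDM1A, genes within 500 kb of a STEAP gene, list members past 1.5-fold or among the 3 farthest from 0, and the 3 genes nearest each member in level. Other list members were named for their role, after their values were seen. Some results that this rule takes in are not reported here. Calls and peak searches were tested on simulated data.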

Additional observations from a re-analysis of the deposited data

How the results depend on the processing

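STEAP4 was lower past 2-fold under each of its 4 alternatives, and STEAP1 and STEAP2 stayed short of 1.5-fold in theirs. STEAP3 turned from lower to slightly higher, with a log2 fold change of 0.036, when its highest accession replaced the sum, because that accession was level. With a pseudocount of 0.1 the iron and copper list had 1 gene lower by 2-fold (BMP6), in place of 0. The androgen-induced list had 5 lower genes at 1.5-fold and 0 with a minimum of 5 FPKM, in place of 1. With peaks at or above the median score, STEAP genes near an LNCaP LSD1 peak went from 3 to 0, and those near a VCaP LSD1 peak from 2 to 1, STEAP2. Within 5 kb LNCaP LSD1 had 2, STEAP3 and STEAP4, and VCaP LSD1 had 1, STEAP4. Within 50 kb each had 3, STEAP2, STEAP3 and STEAP4. Shares of all protein-coding genes are given here for 20 kb and all peaks only, so nothing is read from these member counts. VCaP LSD1 peaks in the chromosome 7 region numbered 4 without the 100 kb sides and 3 at or above the median score, in place of 7. LNCaP LSD1 peaks there numbered 6 under either change, in place of 9. With 50% of each peak shared, 1 of the 2 overlaps was left. A 2 kb transcript at the STEAP3 level would rest on about 254 and 140 fragments (control, LSD1 siRNA), which limits the split over its accessions. At the STEAP4 level it would rest on about 586 and 116 fragments (control, LSD1 siRNA), so the STEAP4 split has this limit too. No paired analysis was possible because each group has 1 sample.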

Other observations

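Within 500 kb of STEAP3, 4 of 10 protein-coding genes were measured, and 2 of them were lower past 1.5-fold after LSD1 siRNA, beside 1.18% of all protein-coding genes. These 2, C2orf76 and DBI, lie side by side. DBI, which encodes the acyl-CoA-binding protein, went from 582 to 358 FPKM (log2 -0.70), and C2orf76 from 13.8 to 8.14 FPKM (log2 -0.69). TMEM177 was at 6.83 and 5.11 FPKM (log2 -0.36) and PTPN4 at 1.74 and 2.19 FPKM (log2 0.22). C2orf76 had a peak of all 3 lists within 20 kb, and DBI had none.

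On chromosome 7, 8 of 12 such neighbours were measured and 0 passed 1.5-fold, beside 1.18% lower and 1.04% higher over all protein-coding genes, so nothing is read from this count. The difference between the chromosomes was not tested. Around STEAP4, SRI was at 44.3 and 36.4 FPKM (log2 -0.28), DBF4 at 2.26 and 1.67 FPKM (log2 -0.29), ADAM22 at 3.43 and 3.70 FPKM and SLC25A40 at 8.19 and 8.76 FPKM (both log2 0.09). Beside STEAP2, CFAP69 was at 74.0 and 63.3 FPKM (log2 -0.22), GTPBP10 at 13.2 and 11.9 FPKM (log2 -0.14), CLDN12 at 138 and 120 FPKM (log2 -0.20) and CDK14 at 16.0 and 18.9 FPKM (log2 0.23). All 8 lay above STEAP4. This was fixed in advance, because STEAP4 ranked 2 of 11753 protein-coding genes, after KDM1A, so nothing is read from it.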
